A study of Mus musculus with 4 samples.

Results

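The receptor chains described here are 10 genes for cytokine receptor subunits, Il4ra, Il5ra, Il6ra, Il9r, Il10ra, Il21r, Il2rg, Il7r, Il13ra1 and Ifngr1. They were chosen by gene symbol among the interleukin and interferon receptor chains of B cells, with earlier results of these data known. All 10 were found among the 23305 genes of the series. RNA-sequencing had been performed on quiescent follicular B cells sorted from spleens of female mice, with 2 biological replicates of wild-type (WT) C57BL/6 mice and 2 of Ets1-/- mice on a mixed C57BL/6 x 129Sv background. Ets1-/- mice lack the transcription factor Ets1 in all cells, not in B cells alone, and the comparison asks which genes depend on it in resting B cells. The sort kept B220+ CD23-high CD21-low cells that were negative for CD80 and for switched immunoglobulin isotypes, so activated and switched cells had been gated out. No cytokine or other treatment was named for these cells, the age of the mice was not given in the sources used here, and the number of animals behind each replicate was not stated. Since the genotypes also differ in strain, effects of strain and of the Ets1 mutation cannot be told apart.

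Most of these chains belong to the class I cytokine receptors, which have no enzyme of their own and signal through JAK kinases bound to their tails and through STAT transcription factors. Il2rg encodes the common gamma chain, which pairs with Il4ra, Il7r, Il9r and Il21r. Il4ra can instead pair with Il13ra1 to form the receptor shared by IL-4 and IL-13. Il5ra signals with the common beta chain Csf2rb and Il6ra with the gp130 chain Il6st. Il10ra and Ifngr1 are class II chains and work with Il10rb and Ifngr2. In B cells IL-4 drives switching to IgG1 and IgE, IL-21 and IL-6 promote differentiation to antibody-secreting cells, and IL-5 acts mainly on B-1 cells.

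Expression was measured as FPKM, the number of sequenced fragments scaled to the length of the gene and the size of the library. These values are already per length, so chains can be compared within a library. Estimated from the steps between low values, depth ranged from 0.876 to 1.75 times that of WT replicate 1, and each genotype held a deeper and a shallower library. Ets1 itself had 231 and 275 FPKM in the WT replicates and 229 and 229.8 FPKM in the Ets1-/- replicates, so the level of this gene, taken over its full length, is no check of the genotype labels. Of the follicular B cell markers, Ms4a1, Cd79a, Cd79b, Fcer2a, Pax5 and Cd22 all lay between 201 and 2051 FPKM in every library.

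In WT follicular B cells the common gamma chain was the most abundant of the 10 receptor chains and Il13ra1 the least. The mean level of Il2rg was 299.6 ± 29.9 FPKM (SD, n = 2), above 97.4% of the 10949 genes tested. Next came Il21r at 151 ± 8.07 FPKM, Il4ra at 104 ± 3.17 FPKM and Il10ra at 87.3 ± 14.8 FPKM (each SD, n = 2). These 4 chains were each above at least 91.0% of tested genes. Il9r at 46.9 ± 4.72 FPKM and Ifngr1 at 40.9 ± 0.766 FPKM (SD, n = 2) took the middle of the order. Il5ra and Il6ra, at 11.9 ± 0.575 and 11.8 ± 1.56 FPKM (SD, n = 2), were the only neighbours in the WT order whose replicates overlapped. Il7r, the receptor of the cytokine that early B cell progenitors need, was low at 4.52 ± 0.546 FPKM (SD, n = 2). Il13ra1 had 0.337 and 0.254 FPKM in the WT replicates and 0.291 and 0.215 FPKM in the Ets1-/- replicates. It was the 1 member under the minimum of 1 FPKM and was not tested. In Ets1-/- B cells the order of the means differed at 1 place, Il9r, which took the fifth position in WT and the ninth in Ets1-/- B cells. In that genotype the replicates of Il21r and Il4ra, of Ifngr1 and Il5ra, and of Il7r and Il9r overlapped.

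**Figure D1:**
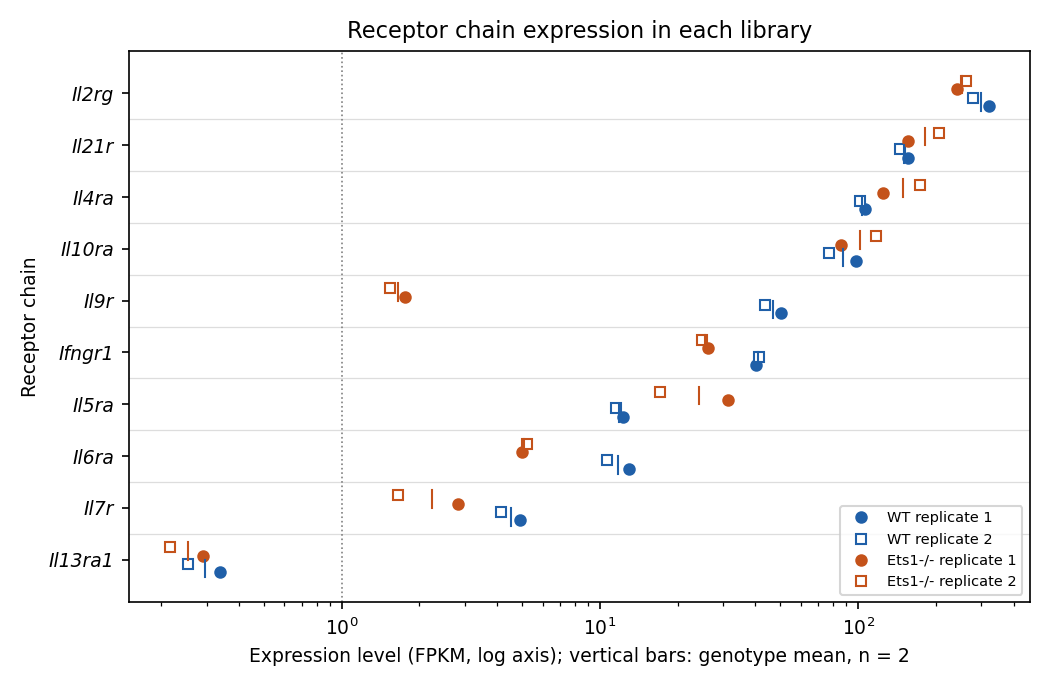
FPKM of each receptor chain on a log axis, with filled and open symbols for replicates 1 and 2 of WT (blue) and Ets1-/- (orange) B cells, short bars at the genotype means (n = 2) and a dotted line at 1 FPKM. Il9r is the chain whose genotypes lie farthest apart, at 43.5 and 50.2 FPKM in WT and 1.54 and 1.76 FPKM in Ets1-/- B cells.

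To ask which chains depend on the genotype, limma was run on log2(FPKM + 1) for all genes whose mean reached 1 FPKM in WT or in Ets1-/- B cells. The log2 difference given for a gene (its log2 fold change) is the Ets1-/- mean minus the WT mean on this scale. A gene was called changed where this difference was at least 1 in size and its p, adjusted over all tested genes by the Benjamini-Hochberg method, was 0.05 or less. Of the 9 receptor chains tested, 1 was called changed, Il9r, which fell, and 0 were called higher. Over all genes tested 1.70% were called changed and 0.822% were called lower. Before adjustment, 5 of the 9 chains (4 lower, 1 higher) had a limma p under 0.05, a share that was 13.3% over all tested genes. Both Ets1-/- replicates lay below both WT replicates for 5 chains, Il9r, Il6ra, Ifngr1, Il7r and Il2rg, and above them for Il4ra and Il5ra. Of all tested genes, 22.2% lay lower and 19.4% higher in this way. The median log2 difference of the 9 chains was -0.25, beside -0.02 over all tested genes, and the median absolute change was 0.66, beside 0.16. As the chains were chosen with earlier results of these data known, these counts and medians describe the 9 chains only. In these bulk libraries, fewer cells of a type and less RNA per cell cannot be told apart.

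**Figure D2:**
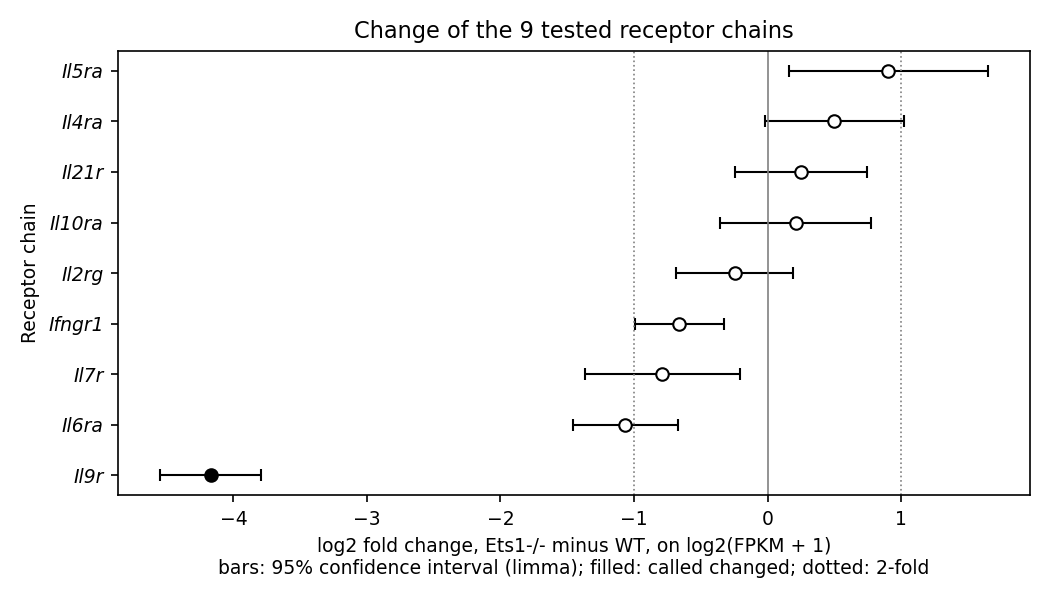
log2 difference (Ets1-/- minus WT, on log2(FPKM + 1)) of the 9 tested receptor chains with 95% confidence intervals from limma, where the filled point is the chain called changed and dotted lines mark 2-fold. Il9r lies at -4.17, while the other 8 chains lie between -1.06 and 0.91.

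The chain with the largest change was Il9r, the ligand-binding alpha chain of the IL-9 receptor. Il9r had 50.2 and 43.5 FPKM in the WT replicates and 1.76 and 1.54 FPKM in the Ets1-/- replicates. The replicates of each genotype lay close together and the genotypes were far apart. The WT mean was 28.4 times the Ets1-/- mean. The log2 difference was -4.17 (standard error 0.15, 95% interval -4.55 to -3.79), with a limma adjusted p of 0.00163. By size this was the 33rd largest change and the 13th largest fall among the 10949 genes tested, and by p it ranked 6th. In WT B cells Il9r was above 82.5% of tested genes and in Ets1-/- B cells above 8.30%. The call was kept under all 12 alternative fits of this gene, with log2 differences between -4.74 and -4.07. In 4 of these fits 1 replicate was left out, and the lone library of its genotype was then assumed to vary like the other genotype.

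Il9r occupies bases 32087541 to 32100279 of chromosome 11 (mm9, minus strand), about 5.14 kb from Snrnp25, a component of the minor spliceosome, and next to the alpha-globin locus. As 2 of its close neighbours were called changed as well, the genes within 1 Mb were looked up after these values had been seen. Snrnp25 had 52.0 and 55.4 FPKM in WT and 21.1 and 26.3 FPKM in Ets1-/- B cells. Its log2 difference was -1.16 (standard error 0.16, limma adjusted p = 0.0481). Rhbdf1, which encodes an inactive rhomboid protein, starts 22.0 kb from the Il9r start site. Rhbdf1 had 11.5 and 12.5 FPKM in WT and 1.75 and 0.960 FPKM in Ets1-/- B cells, a log2 difference of -2.48 (standard error 0.21, limma adjusted p = 0.0124). All 3 genes were thus lower in both Ets1-/- replicates. Beyond them, Mpg, a DNA glycosylase gene, had 14.4 and 15.8 FPKM in WT and 10.3 and 12.7 FPKM in Ets1-/- B cells. Nprl3, which overlaps Mpg on the opposite strand, had 20.3 and 17.5 FPKM in WT and 16.5 and 21.4 FPKM in Ets1-/- B cells, with overlapping values between genotypes. Of 13 other tested genes within 1 Mb, 2 (15.4%) were called changed, where the share over all tested genes was 1.70%. These are the same 2 genes that led to the choice of this window, so the share restates them. The 11 genes not called had log2 differences between -0.55 and 2.82. The highest of these was Hba-a1, an alpha-globin gene whose near-identical copy can share its reads, at 2.90 and 0.906 FPKM in WT and 24.7 and 13.4 FPKM in Ets1-/- B cells. Among the 4 nearest tested genes of Il6ra and the 4 of Ifngr1, 2 on each side, 0 were called changed. Whether the Ets1 mutation or the 129Sv contribution to the background goes with the lower values around Il9r cannot be told apart.

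**Figure D3:**
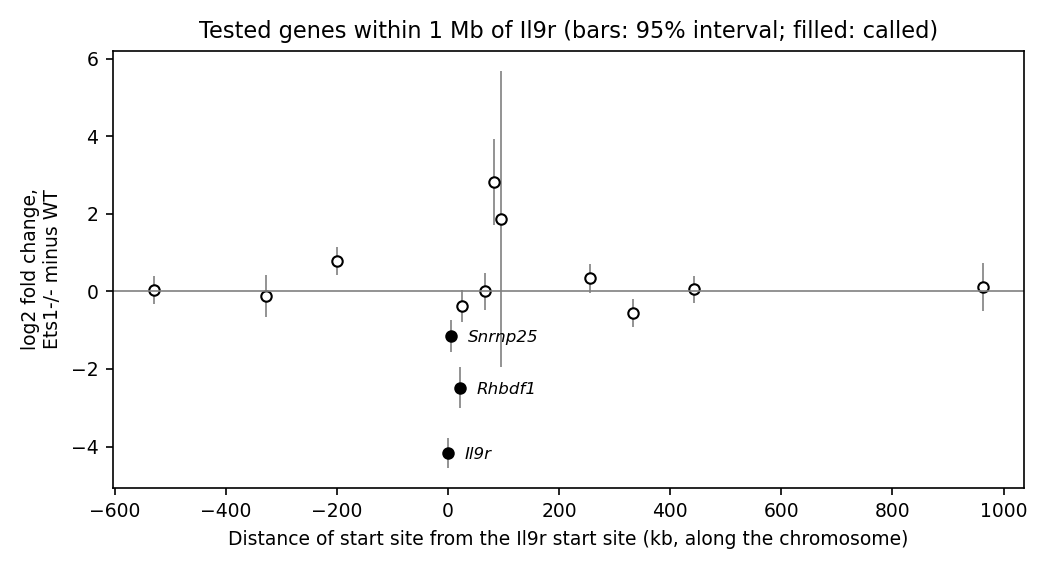
log2 difference (Ets1-/- minus WT, on log2(FPKM + 1)) with 95% intervals of the 14 tested genes within 1 Mb of Il9r, against the distance of their start site from that of Il9r in kb along the chromosome, where filled points are called changed. Il9r, Snrnp25 and Rhbdf1 lie within 22.0 kb of one another at -4.17, -1.16 and -2.48.

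For the 3 chains with the lowest adjusted p, Il9r, Il6ra and Ifngr1, the 250 bases before the start site are shown, since Ets1 binds DNA through a GGAA core. The sequences come from the RefSeq promoter table and were placed on mm9 by exact match, chr11:32100280-32100529 on the minus strand for Il9r, chr3:89717119-89717368 on the minus strand for Il6ra and chr10:19311505-19311754 on the plus strand for Ifngr1. Capitals mark GGAA on either strand (GGAA or TTCC).
Il9r: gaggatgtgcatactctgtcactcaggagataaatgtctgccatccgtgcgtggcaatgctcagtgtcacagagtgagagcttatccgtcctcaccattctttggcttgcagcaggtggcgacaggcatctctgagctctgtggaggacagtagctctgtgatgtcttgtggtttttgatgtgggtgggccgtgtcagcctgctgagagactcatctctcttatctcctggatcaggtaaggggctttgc
Il6ra: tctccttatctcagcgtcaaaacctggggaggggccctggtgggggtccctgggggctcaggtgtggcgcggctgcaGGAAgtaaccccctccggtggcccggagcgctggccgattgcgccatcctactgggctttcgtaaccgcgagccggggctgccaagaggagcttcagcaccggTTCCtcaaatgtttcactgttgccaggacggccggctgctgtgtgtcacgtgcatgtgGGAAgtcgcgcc
Ifngr1: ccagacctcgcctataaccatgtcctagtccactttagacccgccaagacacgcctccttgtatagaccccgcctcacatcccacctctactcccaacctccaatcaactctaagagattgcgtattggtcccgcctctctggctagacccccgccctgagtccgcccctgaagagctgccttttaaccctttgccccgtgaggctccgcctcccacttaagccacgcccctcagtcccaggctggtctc

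The Il9r and Ifngr1 windows held 0 matches and the Il6ra window held 3. Of 32851 windows of the same length in the RefSeq table, 93.4% held GGAA on either strand. The longer letters CCGGAAGT or CAGGAAGT, either strand, were found in 5.49% of windows, and among the 9 receptor chains in that table they were found for Il6ra, 175 bases before the start, and for Il7r, 49 bases before it. Each of these matches contains 1 of the GGAA matches. Il21r also held 0 GGAA matches, and Il4ra, Il5ra, Il2rg, Il13ra1 and Il7r held between 2 and 4. Such matches describe these letters in this window only. The study also mapped Ets1 binding in B cells by ChIP-seq, which was not used here.

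Il6ra, the ligand-binding chain for IL-6, was lower in Ets1-/- B cells, just outside the adjusted p threshold of the limma fit. Il6ra had 12.9 and 10.7 FPKM in the WT replicates and 4.99 and 5.21 FPKM in the Ets1-/- replicates. The genotypes did not overlap and the WT mean was 2.31 times the Ets1-/- mean. The log2 difference was -1.06 (standard error 0.15, 95% interval -1.46 to -0.67), with a limma adjusted p of 0.0507. It was called changed under 4 of 12 alternative fits, with a pseudocount of 0.1 (adjusted p = 0.0442), with genes above 1 FPKM in both genotypes (adjusted p = 0.0498), with robust variance (adjusted p = 0.0188) and with the crossed pairing of replicates, chosen after seeing the data (adjusted p = 0.00110). Over all 12 the limma adjusted p ranged up to 0.417. Its signalling partner Il6st, the gp130 chain, had 4.15 and 3.70 FPKM in WT and 4.56 and 5.62 FPKM in Ets1-/- B cells, a log2 difference of 0.30 (limma adjusted p = 0.568). The level of Il6ra relative to Il6st was therefore 3.11 and 2.89 in the WT libraries and 1.10 and 0.927 in the Ets1-/- libraries. Il6ra was the more abundant of this pair in WT B cells, and the chains were at similar levels in Ets1-/- B cells. The Il6ra gene spans bases 89673246 to 89717084 of chromosome 3 (mm9, minus strand).

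Ifngr1, the ligand-binding chain of the interferon-gamma receptor, was also lower in both Ets1-/- replicates. It had 40.4 and 41.5 FPKM in WT and 26.3 and 24.8 FPKM in Ets1-/- B cells. The replicates of each genotype lay close together and the genotypes did not overlap. The log2 difference was -0.66 (standard error 0.13, 95% interval -0.99 to -0.33), short of 2-fold, and the limma adjusted p was 0.0969. Ifngr2, the signal-transducing chain, had 51.9 and 50.4 FPKM in WT and 47.4 and 48.4 FPKM in Ets1-/- B cells, with a log2 difference of -0.09 (limma adjusted p = 0.878). The ratio of Ifngr1 to Ifngr2 was 0.778 and 0.823 in the WT libraries and 0.555 and 0.513 in the Ets1-/- libraries. Ifngr1 thus had the lower level of the pair in all 4 libraries, and by more in Ets1-/- B cells. The Ifngr1 gene spans bases 19311755 to 19330035 of chromosome 10 (mm9, plus strand).

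The common gamma chain itself was not called changed, nor were Il4ra, Il21r and Il7r, which pair with it. Il2rg had 321 and 278 FPKM in WT and 242 and 262 FPKM in Ets1-/- B cells. Both Ets1-/- values were lower, but the log2 difference of -0.25 (standard error 0.17, 95% interval -0.68 to 0.19) had a limma adjusted p of 0.668. Il4ra, the IL-4 binding chain, had 106 and 102 FPKM in WT and 125 and 173 FPKM in Ets1-/- B cells. Both Ets1-/- values were higher and lay farther apart than the WT values. Over all tested genes, too, the Ets1-/- replicates lay farther apart, with a median absolute log2 difference of 0.26 beside 0.13 for the WT replicates. The log2 difference of Il4ra was 0.50 (standard error 0.20, 95% interval -0.02 to 1.02), with a limma adjusted p of 0.393. Without Ets1-/- replicate 1 it was 0.73 and without Ets1-/- replicate 2 it was 0.27. Il21r, the IL-21 binding chain, had 157 and 145 FPKM in WT and 156 and 206 FPKM in Ets1-/- B cells, and the genotypes overlapped. Its log2 difference was 0.25 (standard error 0.19, 95% interval -0.25 to 0.74, limma adjusted p = 0.724), and without Ets1-/- replicate 1 or 2 it was 0.45 or 0.05. Il4ra (bases 132695785 to 132722986) and Il21r (bases 132746943 to 132777084) are neighbours on the plus strand of chromosome 7 of mm9, 23.96 kb apart. Il2rg spans bases 98459717 to 98463594 of chromosome X, on the minus strand.

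Il7r was lower in both Ets1-/- replicates at levels of a few FPKM. It had 4.90 and 4.13 FPKM in WT and 2.83 and 1.66 FPKM in Ets1-/- B cells. Its log2 difference was -0.79 (standard error 0.23, 95% interval -1.37 to -0.21), and the limma adjusted p was 0.209. Adding 1 to the FPKM understates the change of a gene this low, and the ratio of the means, WT over Ets1-/-, was 2.01. Without Ets1-/- replicate 2 the log2 difference was -0.52 and without Ets1-/- replicate 1 it was -1.05. Il7r is also expressed by T cells, of which the 9 markers summed to 329 and 336 FPKM in WT and 293 and 371 FPKM in Ets1-/- B cells. Cd2 alone made up 190 and 219 FPKM of this sum in WT and 194 and 244 FPKM in Ets1-/- B cells. The sum thus mostly follows Cd2 and is no measure of how much T cell RNA is present. Of these 9 markers 4 were lower without overlap (Cd8a, Cd8b1, Lck and Thy1) and 1 was higher (Cd3g). Thy1 was called lower, and 0 markers were at 0 in all libraries. The T cell receptor complex gene Cd3e stood at 6.67 to 7.74 FPKM over the 4 libraries with overlapping genotypes. Cd3g, of the same complex, had 22.8 and 16.9 FPKM in WT and 25.5 and 32.9 FPKM in Ets1-/- B cells. The sort selected for B220 and CD23, and the part of T cells in the Il7r values was not tested. On mm9, Il7r spans bases 9435916 to 9459631 of chromosome 15 (minus strand) and Il13ra1 bases 33652105 to 33711254 of chromosome X (plus strand).

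Each alpha chain was then set against the chain it works with, library by library. Relative to Il2rg, Il4ra was at 0.331 and 0.365 in the WT libraries and at 0.518 and 0.662 in the Ets1-/- libraries. Il21r was at 0.489 and 0.522 of Il2rg in WT and at 0.646 and 0.788 in Ets1-/- B cells. Il2rg was the more abundant partner in each of these libraries, and the ratios did not overlap between genotypes. For Il9r the ratio to Il2rg was 0.157 and 0.156 in WT and 0.00727 and 0.00590 in Ets1-/- B cells. For Il7r it was 0.0153 and 0.0148 in WT and 0.0117 and 0.00634 in Ets1-/- B cells. Il4ra exceeded Il13ra1 by 315 and 401 times in the WT libraries and by 430.3 and 804 times in the Ets1-/- libraries, so of the chains that pair with Il4ra it was Il2rg that these cells held at a high level. These ratios are given as descriptions and were not tested.

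**Figure D4:**
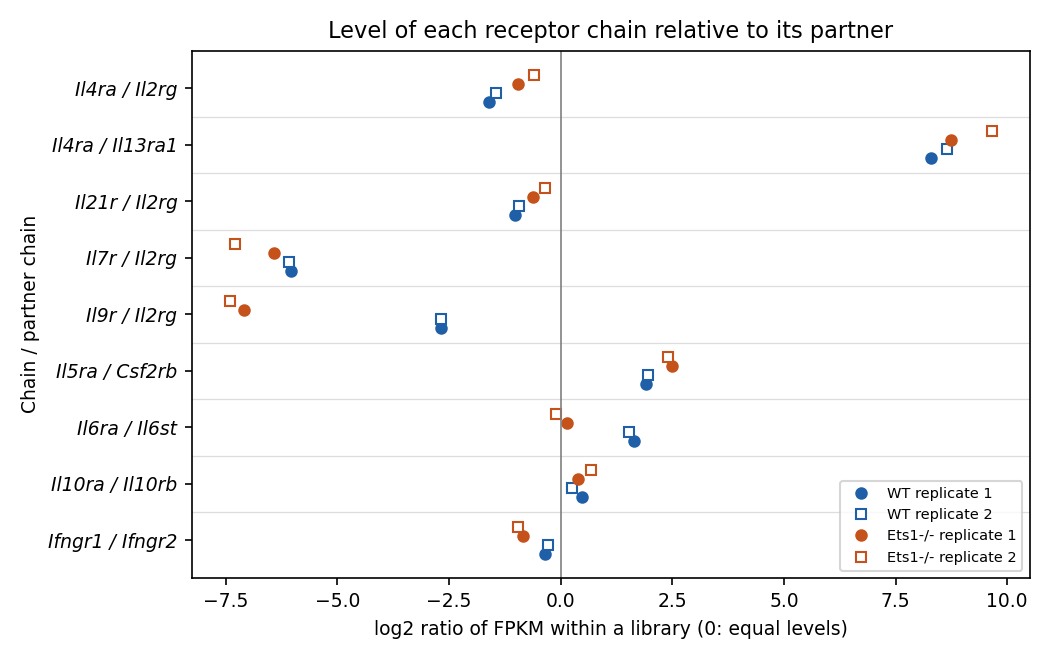
log2 ratio of the FPKM of each receptor chain to that of its partner chain within each library, where 0 marks equal levels and symbols stand for the libraries as named in the key. The ratio of Il9r to Il2rg is lower by a log2 difference of -4.58 in Ets1-/- B cells, and that of Il10ra to Il10rb is the only one whose genotypes overlap.

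Il5ra, the IL-5 binding chain, had higher values in both Ets1-/- replicates and was not called changed. These 2 replicates also differed from one another, and over all tested genes they lay farther apart than the WT replicates. Il5ra had 12.3 and 11.5 FPKM in WT and 31.3 and 17.1 FPKM in Ets1-/- B cells. The ratio of its means, Ets1-/- over WT, was 2.03. The 95% interval of its log2 difference, 0.91 (standard error 0.29), ran from 0.16 to 1.65, and the limma adjusted p was 0.259. Without Ets1-/- replicate 1 the log2 difference was 0.49 and without Ets1-/- replicate 2 it was 1.32. Csf2rb, the common beta chain that IL-5, IL-3 and GM-CSF receptors share, had 3.25 and 2.95 FPKM in WT and 5.53 and 3.23 FPKM in Ets1-/- B cells. Csf2rb has a close paralog, Csf2rb2, and reads can be split between them. The replicate of higher Il5ra was also that of higher Csf2rb, and the ratio of Il5ra to Csf2rb was 3.78 and 3.89 in WT and 5.65 and 5.29 in Ets1-/- B cells. IL-5 receptors mark B-1 cells and eosinophils. The 5 B-1 cell markers summed to 34.8 and 32.6 FPKM in WT and 27.2 and 28.8 FPKM in Ets1-/- B cells, with 2 of 5 higher (Bhlhe41 and Zbtb32) and 2 of 5 lower (Spn and Ahnak) without overlap. The 5 eosinophil markers summed to 1.18 to 2.27 FPKM over the 4 libraries, with Ear1 at 0 in each, and their genotypes overlapped for all 5 markers. Ets1-/- replicate 1, with the higher Il5ra and Csf2rb values, also had the higher sum of neutrophil markers, 2557 FPKM beside 701 FPKM in replicate 2. The sort selected B220+ CD23-high cells, and the part of B-1 cells and myeloid cells in the Il5ra values was not tested. Il5ra spans bases 106660378 to 106695103 of chromosome 6 (mm9, minus strand).

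Il10ra, the IL-10 binding chain, had 97.8 and 76.9 FPKM in WT and 86.2 and 117 FPKM in Ets1-/- B cells, and the genotypes overlapped. Its log2 difference of 0.21 (standard error 0.22, 95% interval -0.35 to 0.78) had a limma adjusted p of 0.822. Il10rb, its partner, had 69.9 and 64.3 FPKM in WT and 65.7 and 73.6 FPKM in Ets1-/- B cells. Il10ra is the member nearest to the mutated gene, at bases 45061922 to 45077232 of chromosome 9 (mm9, minus strand), 12.5 Mb from Ets1.

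Of 39 other interleukin, interferon and related cytokine receptor chains, 22 were tested and 0 were called changed, beside 1.70% of all tested genes. Before adjustment 5 had a limma p under 0.05, namely Il3ra, Lifr, Il12rb1 and Il15ra, with higher values in Ets1-/- B cells, and Ifnlr1, with lower values. The share at this p over all tested genes was 13.3%. The median log2 difference of the 22 was 0.03 and the median absolute change 0.23, beside 0.16 over all tested genes. Il12rb1, a subunit of the IL-12 and IL-23 receptors, had 1.76 and 1.49 FPKM in WT and 3.23 and 5.001 FPKM in Ets1-/- B cells. Its log2 difference of 0.94 (standard error 0.22, limma adjusted p = 0.138) was the largest on this list. Il3ra, the IL-3 binding chain, had 6.86 FPKM in both WT replicates and 12.4 and 10.9 FPKM in Ets1-/- B cells, with a limma adjusted p of 0.109. Lifr, the receptor of leukemia inhibitory factor, had 1.39 and 1.36 FPKM in WT and 2.32 and 2.20 FPKM in Ets1-/- B cells. Il15ra, the IL-15 binding chain, had 3.21 and 3.51 FPKM in WT and 7.31 and 4.396 FPKM in Ets1-/- B cells. Both had higher values in each Ets1-/- replicate, with limma adjusted p of 0.267 for Lifr and 0.369 for Il15ra. Ifnlr1, the interferon-lambda receptor, had 1.38 and 0.963 FPKM in WT and 0.643 and 0.394 FPKM in Ets1-/- B cells, with a limma adjusted p of 0.350. The 3 most abundant chains of the list in WT B cells were Il10rb, Il17ra and Crlf2 at 67.1, 66.6 and 59.0 FPKM. Their log2 differences were 0.05 for Il10rb, -0.18 for Il17ra, an IL-17 receptor, and -0.33 for Crlf2, the TSLP receptor. The 17 chains not tested had at most 1.15 FPKM in any library, and Il13ra2, a decoy receptor for IL-13, was listed at 0 in all 4.

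The genes of the ligands themselves were at low levels or at 0. Of 11 genes for the matching cytokines only Ifng was tested, at 1.78 and 2.62 FPKM in WT and 4.71 and 2.72 FPKM in Ets1-/- B cells (limma adjusted p = 0.510), and Il9 and Il13 were listed at 0 in every library. Of 10 JAK kinases and STAT factors 0 were called changed, beside 1.70% of all tested genes. Their log2 differences ran from -1.45 to 0.23. The lowest was Stat4, which relays IL-12 signals, at 25.7 and 23.8 FPKM in WT and 10.95 and 6.41 FPKM in Ets1-/- B cells (limma adjusted p = 0.0736). The highest log2 difference without overlap among these 10 was that of Stat2, which relays type I interferon signals, at 40.6 and 35.8 FPKM in WT and 41.3 and 48.8 FPKM in Ets1-/- B cells (limma adjusted p = 0.668).

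Among 14 feedback inhibitors of cytokine signaling, 12 were tested and 0 called changed, beside 1.70% of all tested genes. Socs3, an inhibitor that binds gp130 receptors, had 13.8 and 25.4 FPKM in WT and 40.5 and 45.9 FPKM in Ets1-/- B cells, a log2 difference of 1.16 (standard error 0.30, limma adjusted p = 0.167). The lowest was Socs5, with 7.15 and 6.63 FPKM in WT and 4.52 and 4.54 FPKM in Ets1-/- B cells (limma adjusted p = 0.189). Of 13 genes known to respond to these cytokines 0 were called changed, which a list this short can hold at the share of 1.70% over all tested genes. Without overlap 6 of the 13 were higher and 3 lower, beside 19.4% and 22.2% of all tested genes. The median absolute change of the 13 was 0.42, beside 0.16 over all tested genes. The highest log2 difference was that of Il4i1, an IL-4-induced amino acid oxidase, at 91.4 and 69.6 FPKM in WT and 124 and 224 FPKM in Ets1-/- B cells (log2 difference 1.05, standard error 0.32, limma adjusted p = 0.238). The lowest was that of Irf4, a factor for plasma cell formation, at 47.3 and 73.4 FPKM in WT and 45.2 and 23.0 FPKM in Ets1-/- B cells (limma adjusted p = 0.444). The genotypes of Socs3, Socs5, Il4i1 and Irf4 did not overlap. Fcer2a, the CD23 gene that IL-4 raises and that the sort used, overlapped between genotypes at 664 and 544 FPKM in WT and 488 and 559.6 FPKM in Ets1-/- B cells.

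Markers of other cells moved with genotype for some lists. The 9 neutrophil markers summed to 113 and 93.5 FPKM in WT and to 2557 and 701 FPKM in Ets1-/- B cells, with 8 of 9 higher without overlap and 3, Ngp, Camp and Ltf, called higher. The 8 macrophage and dendritic cell markers summed to 57.6 and 29.8 FPKM in WT and 142 and 92.9 FPKM in Ets1-/- B cells, with 3 of 8 higher without overlap, and Emr1, the F4/80 gene, was called higher. Il4ra, Il6ra, Il10ra, Ifngr1 and Il13ra1 are also expressed by myeloid cells. The sort selected B220+ CD23-high cells, and myeloid markers were detected in all 4 libraries. The part of myeloid cells in the values of these receptor chains was not tested. Within the Ets1-/- genotype, replicate 1 had the higher neutrophil sum and the lower values of Il4ra, Il10ra and Il6ra, and the higher values of Ifngr1 and Il13ra1. Without that replicate, with the spread taken from WT alone, Il9r was the 1 receptor chain called changed. The replicate kept in that fit still had a neutrophil sum of 701 FPKM. The 5 marginal zone B cell markers summed to 197 and 232 FPKM in WT and 153 and 97.0 FPKM in Ets1-/- B cells. Of these, 2 of 5, Cr2 and Dtx1, were lower without overlap, while Cd1d1, Cd9 and S1pr3 overlapped. Cr2, the CD21 gene that the sort used, had 102 and 116 FPKM in WT and 65.1 and 30.0 FPKM in Ets1-/- B cells. The study listed Cr2 as downregulated among its potential Ets1 target genes. The 4 NK cell markers summed to 34.3 and 22.3 FPKM in WT and 16.6 and 25.1 FPKM in Ets1-/- B cells, with 3 of 4 lower. The 5 plasma cell markers summed to 168 and 189 FPKM in WT and 138 and 152 FPKM in Ets1-/- B cells, with 2 of 5 higher and 2 of 5 lower.

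**Figure D5:**
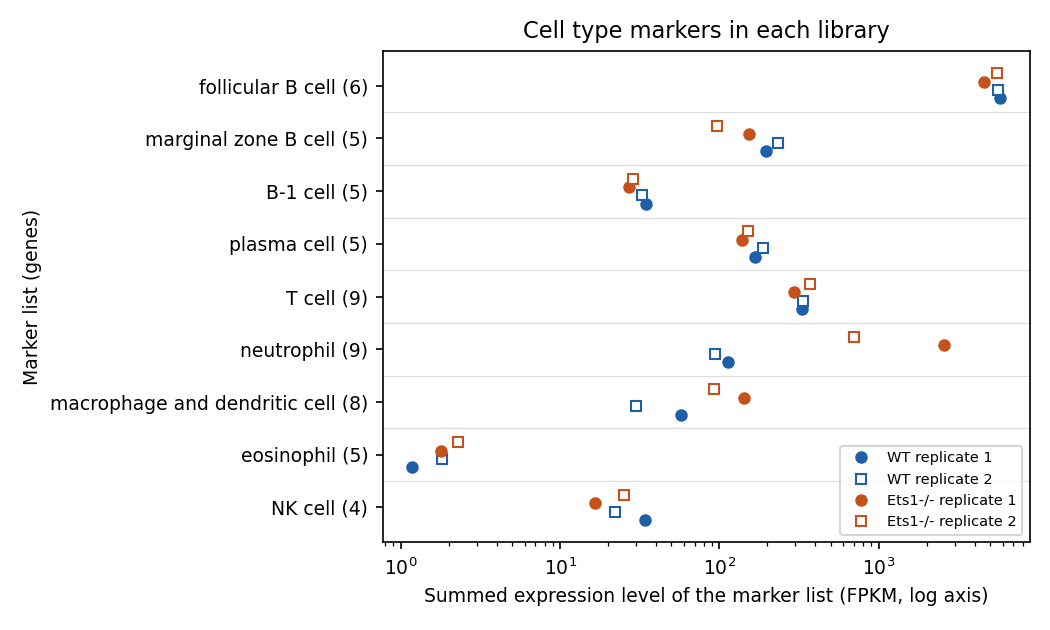
Summed FPKM of each cell type marker list on a log axis, with the number of genes in brackets and symbols for the libraries as named in the key. The neutrophil sum is 113 and 93.5 FPKM in WT and 2557 and 701 FPKM in Ets1-/- B cells. The follicular B cell sum is 5798 and 5626 FPKM in WT and 4572 and 5487 FPKM in Ets1-/- B cells, lower in both Ets1-/- replicates. Of its 6 markers 1, Cd79a, is lower without overlap and 5 overlap.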

How the data were processed

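RNA-sequencing of sorted follicular B cells from 2 WT and 2 Ets1-/- replicates was used. The authors aligned the reads to mm9, with TopHat2 2.0.13 and Cuffdiff named in the submitters' processing notes, and deposited 1 FPKM value per gene and library. The annotation and any scaling between libraries are not given in the sources used here. The files hold no read counts, so depth was estimated from them only relative to WT replicate 1. Of 23309 entries, 4 with repeated symbols were left out. The 10949 genes whose mean FPKM reached 1 in WT or Ets1-/- B cells entered limma 3.58.1 (R 4.3.3) on log2(FPKM + 1), with genotype as the only term and a trend in eBayes (residual degrees of freedom 2). The study's own test needs aligned reads, so its thresholds (2-fold, 0.05, an FPKM of 1) were used with limma. The 2-fold cut was applied on log2(FPKM + 1), where it is stricter for low genes than on FPKM. Il5ra (means 2.03, Ets1-/- over WT) and Il7r (means 2.01, WT over Ets1-/-) had log2 differences of 0.91 and -0.79 on this scale. Calls can therefore differ from those of the study. The study listed Il6ra and Stat4 as downregulated in Ets1-/- B cells and named Il5ra among its putative target genes. It drew each of them from genes with altered expression and a nearby Ets1-binding peak by ChIP-seq. Its qRT-PCR for Stat4 went the same way as its RNA-sequencing. The main limma fit called none of these genes. P-values rest on the spread between these 2 replicates per genotype and, through eBayes, on that of genes at similar levels. The median prior degrees of freedom were 3.10. Tables were made in Python 3.11.15.

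The 10 receptor chains, the gene lists and the tests were chosen with earlier results of these data known. All 10 members are named, with partner chains, related chains with an unadjusted p under 0.05 or among the 3 most abundant, and, of the other pathway lists, called genes and the largest non-overlapping rise and fall. Neighbours of Il9r, Il6ra and Ifngr1 were added after their values were seen. Gene positions come from GENCODE M1 (mm9), and promoters from the RefSeq table, which held 9 of the 10 members (not Il10ra). Some genes of the lists are not reported here. Symbols of Ighd and Siglecf were not matched. Alternatives covered the pseudocount, the filter, scaling, variance model, thresholds, the replicate block, the crossed pairing and each replicate left out.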

Additional observations from a re-analysis of the deposited data

How the results depend on the processing

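Il9r was called changed in each of the 14 alternatives, and 0 related receptor chains were called in any of them. The number of receptor chains called rose from 1 to 2, by the addition of Il6ra, with a pseudocount of 0.1, with a minimum of 1 FPKM in both genotypes, with robust variance, at an adjusted p of 0.10 or less and under the crossed pairing, and it was 1 with each replicate left out. Over all genes the 186 calls became 75 with no filter, 305 with robust variance, 312 at an adjusted p of 0.10 or less, 409 under the crossed pairing, and between 99 and 116 with 1 replicate left out, where fewer samples enter and the lone library is assumed to vary like the other genotype. For these changes other than leaving out a replicate the cause was not tested. In the fit with a replicate block 266 genes and 1 receptor chain, Il9r, were called, and no call of a receptor chain changed. The deviations of same-numbered replicates from the means of their genotypes were opposed (correlation across genes -0.21). With 1 deviation per gene and genotype, this cannot show whether same-numbered samples were paired, and the labels name no pairing. The crossed pairing, chosen after seeing the data, gave 2 receptor chains. Without Ets1-/- replicate 2 the log2 difference of Il10ra turned to -0.0082, and with 1 replicate left out it ranged from -0.0082 to 0.43. No other receptor chain changed sign in any fit. On the ratio of FPKM + 1, where adding 1 weighs more on low genes, the log2 level relative to the partner changed by -3.92 in place of -4.58 for Il9r and by -1.37 in place of -1.57 for Il6ra. With 2 replicates per genotype, a change near 2-fold such as that of Il6ra lies at the edge of what these libraries call, and the files do not give the reads behind each FPKM.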
